A study of Homo sapiens with 8 samples.

Results

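NF-kB is a family of transcription factors that most cells hold ready in the cytoplasm and release after signals from cytokine receptors, toll-like receptors and other sensors. Its subunits pair as dimers, the inhibitor proteins of the IkB family hold them outside the nucleus, and a kinase complex marks the inhibitors for destruction. Several genes that the factor switches on encode its own inhibitors and subunits, so the pathway has built-in feedback. The 10 genes described here were listed by name as parts of that pathway, and all 10 were found among the 60652 gene rows of the files. They comprise the subunit genes RELA, RELB, REL, NFKB1 and NFKB2, the inhibitor genes NFKBIA, NFKBIB and NFKBIE, and the regulators BIRC2 and TNFAIP3. The set bears on these cells because the activator used in the study, VPR, joins VP64 and Rta to the activation domain of p65, the protein that RELA encodes.

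Messenger RNA was sequenced from HEK293T cells, an established human embryonic kidney line, that carried a TRE3G-GFP reporter. All 4 groups received plasmids for a VPR activator and for a guide, and cells positive for mCherry and BFP were sorted 2 days later, with 2 libraries per group. The groups were dCasMINI-VPR with the Tet guide (sgTet), dCasMINI-VPR with a non-targeting guide (sgNT), dCas12a-VPR with the Tet guide (crTet) and dCas12a-VPR with a non-targeting guide (crNT). Every group carried VPR, so no library shows the cells without a p65 domain. The promoters that drive the activators are not given in the sources used here. The labels name no separate cultures, so p-values measure the spread between these libraries, which may be technical. They name no batch either, and the files of the activators carry different name prefixes, so the activator and any separate handling cannot be told apart.

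Libraries held between 17474404 and 21081942 reads in genes, where 3 reads are worth 0.142 to 0.172 CPM (read counts scaled to library size with TMM factors). The EGFP reporter row rose with the Tet guide by 8.05 ± 0.13 on the log2 scale with dCasMINI-VPR and by 8.12 ± 0.13 with dCas12a-VPR (± SE). The sgTet libraries differed more between themselves than those of other groups, with a chi-square per degree of freedom of 13.1, against 3.83 in sgNT, 6.69 in crTet and 3.13 in crNT. The crNT libraries had unmapped shares of 14.4% and 12.7%, while the other 6 libraries had 8.32% to 9.62%. All 8 markers of the HEK293T line, such as IRS4 and NEFM, had reads, with a summed level of 1269 to 1553 CPM. Of the 6 haematopoietic markers 5 had reads and 4 had enough reads to be tested, with a sum of 4.19 to 7.12 CPM. The remaining one, PTPRC, had 0 reads in every library. Endothelial markers summed to at most 0.624 CPM, and fibroblast markers to 34.1 to 47.4 CPM.

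The DNA next to these genes was searched for the letters of the site that NF-kB binds. RefSeq windows (GRCh38.p14) were found for 8 of the 10 genes, all but RELB and NFKBIE. The 250 bases before each start were searched on both strands for the 10-base kappa-B consensus, the site that NF-kB dimers are known to bind. It was present for 6 of the 8 genes, against 11.8% of the 27305 genes with a window, and RELA and BIRC2 held no match. Counted by window, 7 of their 14 windows held it, against 9.96% of 35116 windows. The genes were listed partly as feedback targets of NF-kB, so these shares are a description and not a test. The stretches below show 1 place for each of the 6 genes, 30 bases on the strand of the gene, with the matching bases in capitals, to let the sites be compared between subunits and inhibitors. NFKB2 has 3 listed starts and further matches in its windows, of which 1 place is shown.
REL: cgtcagccgcGGGAAATTCCCctcccgcca
NFKB1: cgacgtcagtGGGAATTTCCagccaggaag
NFKB2: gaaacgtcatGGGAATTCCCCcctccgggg
NFKBIA: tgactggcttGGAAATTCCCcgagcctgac
NFKBIB: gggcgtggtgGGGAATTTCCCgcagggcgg
TNFAIP3: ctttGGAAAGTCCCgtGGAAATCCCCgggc
The stretches lie at chr2:60881517-60881546 for REL, chr4:102501300-102501329 for NFKB1, chr10:102394461-102394490 for NFKB2, chr14:35404811-35404840 for NFKBIA (minus strand), chr19:38899931-38899960 for NFKBIB and chr6:137867188-137867217 for TNFAIP3. In TNFAIP3 a pair of matches stands between positions -67 and -46 from the start, separated by 2 bases. In REL, NFKB2 and NFKBIB the 11 capitals hold 2 overlapping matches. A match describes the letters only, and no binding was measured.

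Per length of exon, RELA had the highest level of the 10 genes in every group. Plasmid reads of the p65 part, where they match RELA exons, are counted in that level. Their part in the rank was not tested. RPKM (here CPM divided by the exon length in kilobases, from GENCODE release 29) of RELA was 22.5 ± 0.845 in sgTet, 21.3 ± 0.766 in sgNT, 20.2 ± 1.65 in crTet and 20.7 ± 1.16 in crNT (SD, n = 2 each). The inhibitor genes NFKBIA and NFKBIB followed, with group means of 13.8 to 18.4 and 14.6 to 17.6 RPKM, whose ranges overlap. BIRC2 came next at 10.1 to 13.4 RPKM, then NFKB2 at 7.52 to 10.2, NFKBIE at 6.03 to 7.59 and NFKB1 at 5.14 to 5.81. RELB, TNFAIP3 and REL were the rarest, at 1.46 to 3.83, 1.86 to 2.26 and 0.789 to 0.947 RPKM. The ranges of RELB and TNFAIP3 overlap, as do those of BIRC2 and NFKB2 and of NFKB2 and NFKBIE. In release 29, 43.3% of the exon bases of REL are shared with the non-coding gene AC010733.2, which was listed at 0 reads in every library. Reads in a shared stretch count for neither gene, so the REL level per length is understated. For the other 9 genes the shared part was at most 1.88%.

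**Figure D1:**
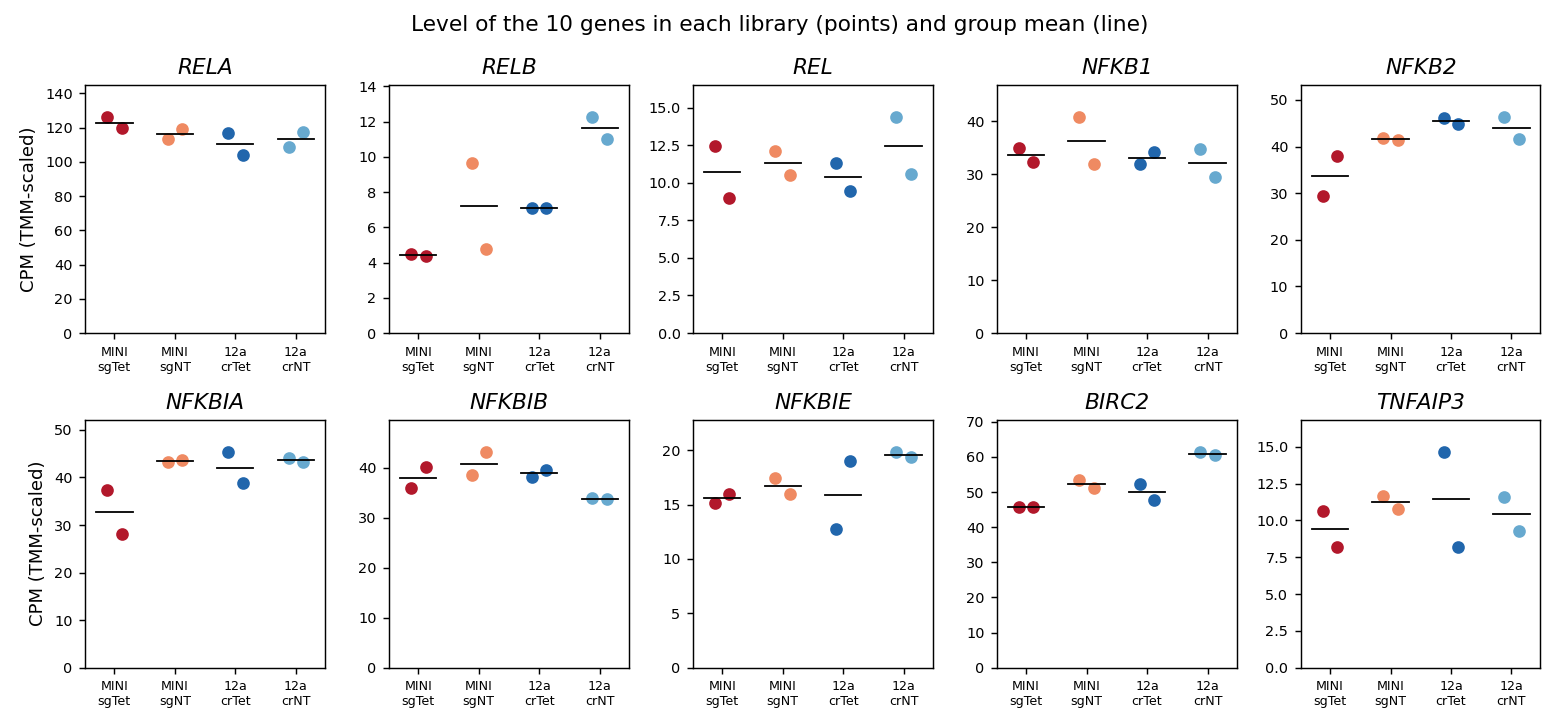
CPM of each of the 10 genes in the 8 libraries (points) with the group mean (line), on axes that start at 0. RELB lies highest in crNT, at 12.3 and 11.03 CPM, and its sgNT libraries stand apart from each other, at 9.68 and 4.77 CPM.

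RELA encodes p65, the transactivating subunit of the canonical pathway and the source of the domain in VPR. It had 126 and 119.5 CPM in the sgTet libraries, 113 and 119 CPM in sgNT, 117 and 104 CPM in crTet, and 109 and 118 CPM in crNT. The values span a narrow band, with sgTet above sgNT by a small margin and crTet overlapping crNT. The guide effect was 0.08 ± 0.08 with dCasMINI-VPR (log2 fold change ± SE, 95% interval -0.09 to 0.25) and -0.03 ± 0.08 with dCas12a-VPR (-0.20 to 0.13), and neither passed the test. Reads of the p65 part of the plasmid transcript, where they match RELA exons, cannot be told apart from those of the cell's own gene in these counts.

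RELB, the partner of p52 in the non-canonical pathway, showed the largest differences among the 10 genes. It had 4.501 and 4.355 CPM in sgTet, 9.68 and 4.77 CPM in sgNT, 7.08 and 7.13 CPM in crTet, and 12.3 and 11.03 CPM in crNT. Both Tet groups were below their non-targeting groups without overlap, and both dCasMINI-VPR groups below the dCas12a-VPR group with the same kind of guide. The counts behind this were small, 90 and 90 reads in sgTet, 189 and 84 in sgNT, 145 and 138 in crTet, and 239 and 224 in crNT. Counting error alone gives exact Poisson 95% intervals of 8.35 to 11.2 CPM for sgNT replicate 1 and 3.80 to 5.90 CPM for sgNT replicate 2, which do not overlap. The guide effect was -0.71 ± 0.25 with dCasMINI-VPR (fold 0.61, edgeR adjusted p = 0.198) and -0.71 ± 0.23 with dCas12a-VPR (fold 0.61, adjusted p = 0.0552), so neither passed over all genes. Without sgNT replicate 1 the effect with dCasMINI-VPR was -0.10 (adjusted p = 0.929), and without sgNT replicate 2 it was -1.13 and passed (adjusted p = 0.0209), so the sgNT library kept decides that value. The effect with dCas12a-VPR passed when any 1 sgTet or sgNT library was left out of the shared fit. Those libraries are not in that comparison. It also passed in a fit of its own 4 libraries (edgeR adjusted p = 0.00852). When any 1 of its own crTet or crNT libraries was left out, the effect did not pass. Its value was -0.78 without crNT replicate 2 and -0.64 without crNT replicate 1.

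The remaining subunits differed little between guides. REL, a subunit best known from lymphocytes, had 12.5 and 9.001 CPM in sgTet, 12.1 and 10.5 CPM in sgNT, 11.3 and 9.45 CPM in crTet, and 14.4 and 10.6 CPM in crNT, and all groups overlapped. NFKB1, which encodes the p105 precursor of p50, had 35.1 and 32.3 CPM in sgTet, 40.8 and 31.9 CPM in sgNT, 32.0 and 34.3 CPM in crTet, and 34.8 and 29.5 CPM in crNT, again with overlap throughout. For NFKB1 the 95% intervals of the guide effects ran from -0.36 to 0.14 with dCasMINI-VPR and from -0.21 to 0.29 with dCas12a-VPR. The wider intervals of REL ran from -0.46 to 0.31 and from -0.64 to 0.12.

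NFKB2, which encodes the p100 precursor of p52, stood out in the sgTet libraries. It had 29.5 and 37.9 CPM in sgTet, 41.9 and 41.4 CPM in sgNT, 46.2 and 44.9 CPM in crTet, and 46.3 and 41.7 CPM in crNT. The sgTet libraries were the lowest of the 8, and replicate 1 lay well below replicate 2. Its guide effect was -0.30 ± 0.11 with dCasMINI-VPR (adjusted p = 0.246) and 0.05 ± 0.11 with dCas12a-VPR (adjusted p = 0.86), and the difference between these effects did not pass either (-0.36 ± 0.16, adjusted p = 0.27). Without sgTet replicate 2 the dCasMINI-VPR effect (-0.50, adjusted p = 0.00565) and that difference (-0.55, adjusted p = 0.0145) passed. Without sgTet replicate 1 they were -0.13 (adjusted p = 0.88) and -0.18 (adjusted p = 0.677), so the sgTet library kept decides both values.

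NFKBIA encodes IkBa, the inhibitor that NF-kB resynthesises within its own response. It had 37.4 and 28.2 CPM in sgTet, 43.2 and 43.7 CPM in sgNT, 45.3 and 38.8 CPM in crTet, and 44.2 and 43.3 CPM in crNT. Here too both sgTet libraries were the lowest of the 8, but replicate 2 was the lower one, the reverse of NFKB2. The guide effect was -0.41 ± 0.12 with dCasMINI-VPR (adjusted p = 0.106), and it passed without sgTet replicate 1 (-0.62, adjusted p = 0.00362) or with no filter on low counts (-0.41, adjusted p = 0.0275). Without sgTet replicate 2 it was -0.22 and did not pass. With dCas12a-VPR it was -0.06 ± 0.12 (adjusted p = 0.852).

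NFKBIB, which encodes IkBb, had 35.9 and 40.2 CPM in sgTet, 38.6 and 43.2 CPM in sgNT, 38.3 and 39.7 CPM in crTet, and 34.0 and 33.7 CPM in crNT. Its crNT libraries were the lowest of the 8, and the other groups overlapped one another. The guide effect with dCas12a-VPR was 0.20 ± 0.11 (adjusted p = 0.313). NFKBIE, which encodes IkBe, had 15.2 and 16.0 CPM in sgTet, 17.4 and 16.0 CPM in sgNT, 12.7 and 19.1 CPM in crTet, and 19.8 and 19.4 CPM in crNT. The crTet libraries of NFKBIE differed from each other by more than any group means did, and its guide effect with dCas12a-VPR was -0.30 ± 0.16 (adjusted p = 0.282). It was -0.62 without crTet replicate 2 (adjusted p = 0.0549) and -0.04 without crTet replicate 1 (adjusted p = 0.94).

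BIRC2 encodes cIAP1, a ubiquitin ligase of the TNF receptor complex that also keeps the non-canonical pathway low. It had 45.7 and 45.8 CPM in sgTet, 53.4 and 51.1 CPM in sgNT, 52.2 and 47.7 CPM in crTet, and 61.4 and 60.4 CPM in crNT. Both Tet groups were below their non-targeting groups without overlap, by -0.19 ± 0.10 with dCasMINI-VPR (adjusted p = 0.426) and by -0.29 ± 0.10 with dCas12a-VPR (adjusted p = 0.0718). The dCas12a-VPR value passed without sgTet replicate 1 or 2, which are not in that comparison. It also passed in a fit of its own 4 libraries (edgeR adjusted p = 0.0311). Without any 1 of the sgNT, crNT or crTet libraries it did not pass. Its value was -0.35 without crTet replicate 1 and -0.22 without crTet replicate 2. TNFAIP3 encodes a ubiquitin-editing protein, known as A20, that ends NF-kB signalling and is itself an NF-kB target. It had 10.6 and 8.18 CPM in sgTet, 11.7 and 10.8 CPM in sgNT, 14.6 and 8.21 CPM in crTet, and 11.6 and 9.31 CPM in crNT. Its crTet libraries held both the highest and nearly the lowest value of the 8, and its guide effects of -0.26 ± 0.22 and 0.13 ± 0.21 did not pass (adjusted p = 0.664 and 0.794). With dCas12a-VPR the value was -0.35 without crTet replicate 1 and 0.49 without crTet replicate 2, so its sign rests on the crTet library kept.

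Counted together, none of the 10 genes passed the guide test with dCasMINI-VPR in edgeR (adjusted p of 0.05 over the 16606 genes tested), where 0.795% of all genes did. At an unadjusted edgeR p under 0.05 there were 3, namely RELB, NFKB2 and NFKBIA, at ranks 560, 818 and 266 of the 16606 genes by p. DESeq2 called 0. The share of all genes at such an unadjusted p is not given, here or below. BIRC2, at an unadjusted edgeR p of 0.0574, ranked 2239 of all genes. With dCas12a-VPR none passed either, where 6.32% of all genes did. There 2 had an unadjusted p under 0.05, RELB and BIRC2, at ranks 1114 and 1306. NFKBIE, at an unadjusted edgeR p of 0.0616, ranked 3624, so a p of this size was common over all genes. DESeq2 again called 0. Libraries of the sgTet and sgNT groups did not overlap for 7 of the 10 genes, 6 of them lower in sgTet, against 40.9% and 20.2% of all genes. Among these 7, the nearest libraries of NFKBIE were almost level, at 15.97 CPM in sgTet and 16 CPM in sgNT. Those of TNFAIP3 (10.65 and 10.78 CPM) and RELA (119.5 and 119.3 CPM) were almost level too. Libraries of crTet and crNT did not overlap for 4 of the 10, 3 of them lower in crTet, against 52.6% and 26.3% of all genes. The median log2 fold change of the 10 genes was -0.15 with dCasMINI-VPR and -0.04 with dCas12a-VPR, beside 0.00 and 0.01 over all genes. The test of the difference between the guide effects called 0 of the 10 (1.35% of all genes), and DESeq2 called 0. NFKB2 and NFKBIA had an unadjusted p under 0.05 there, at ranks 2073 and 2418 of all genes by p.

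The mean of both guide effects, added after the values above were seen, uses all 8 libraries. By that measure RELB fell by 0.71 ± 0.17 on the log2 scale (fold 0.61, adjusted p = 0.0104), with means of 5.76 CPM over the Tet libraries and 9.43 CPM over the non-targeting ones. BIRC2 fell by 0.24 ± 0.07 (fold 0.85, adjusted p = 0.0405), with 47.9 CPM over the Tet libraries and 56.6 CPM over the non-targeting ones. These 2 of 10 genes were the ones called, where 4.11% of all genes were called and 1.72% were called lower. The Tet library values of both genes overlapped the non-targeting ones once the activators were put together. Leaving out sgNT replicate 1 ended the RELB call (-0.41, adjusted p = 0.282), and leaving out crNT replicate 1 did so too (-0.68, adjusted p = 0.0652). The BIRC2 call was lost without sgNT replicate 1 or 2, crNT replicate 1 or 2, or crTet replicate 2 (adjusted p = 0.198, 0.0864, 0.206, 0.132 and 0.157). Counts of the second strand column ended both calls, with RELB at -0.62 (adjusted p = 0.199) and BIRC2 at -0.14 (adjusted p = 0.436). Each strand column holds only part of the reads, such as 620 and 578 of the 1198 BIRC2 reads in crNT replicate 1. The part of the higher unmapped share of the crNT libraries in these values was not tested.

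**Figure D2:**
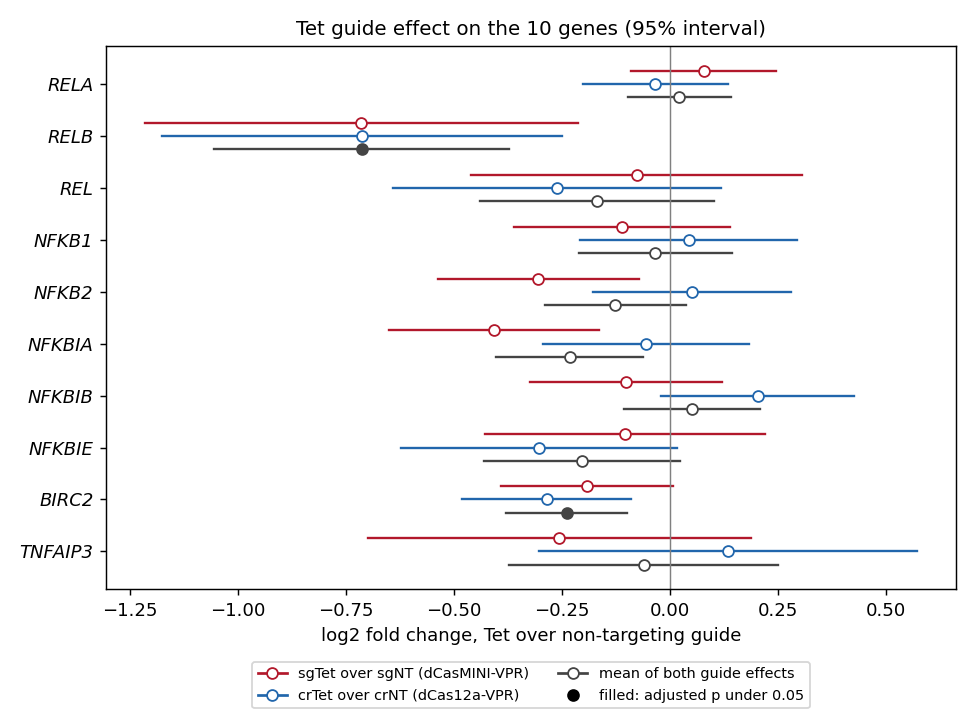
Log2 fold change of the Tet guide over the non-targeting guide for each gene with its 95% interval, for dCasMINI-VPR, for dCas12a-VPR and for their mean. RELB lies at -0.71 under each, and only the means of RELB and BIRC2 are filled, which marks an adjusted p under 0.05.

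The activators were then compared with each other under the same kind of guide. With the Tet guides NFKB2 was lower with dCasMINI-VPR (log2 difference -0.43 ± 0.11, fold 0.74, adjusted p = 0.0217), at 33.7 ± 6.001 CPM in sgTet and 45.5 ± 0.945 CPM in crTet (SD, n = 2 each). NFKB2 was the 1 gene of 10 called there, where 4.28% of all genes were called and 2.60% were called lower. Its call was lost without sgTet replicate 1 (-0.26, adjusted p = 0.303), crTet replicate 1 (adjusted p = 0.117) or crTet replicate 2 (adjusted p = 0.0838), and in a fit of these 4 libraries alone (adjusted p = 0.096). NFKBIA was at 32.8 ± 6.50 CPM in sgTet and 42.1 ± 4.595 CPM in crTet, a difference of -0.36 ± 0.12 (adjusted p = 0.0754). That difference was -0.58 and passed without sgTet replicate 1 (adjusted p = 0.00295), and was -0.17 and did not pass without sgTet replicate 2. RELB was at 4.43 ± 0.103 CPM in sgTet and 7.10 ± 0.0358 CPM in crTet, -0.68 ± 0.24 (adjusted p = 0.111). RELA, at 123 ± 4.62 CPM in sgTet and 111 ± 9.02 CPM in crTet, differed by 0.15 ± 0.08 (adjusted p = 0.333). Libraries did not overlap for 5 of the 10 genes, against 44.5% of all genes.

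With the non-targeting guides none of the 10 genes was called in edgeR, where 7.68% of all genes were. At an unadjusted p under 0.05 stood RELB, NFKBIB and BIRC2, 3 genes, at ranks 1458, 2311 and 2749 of the 16606 genes by p. The edgeR p of BIRC2 was 0.0287, so a p under 0.05 was common over all genes. DESeq2 called 0. RELB was at 7.22 ± 3.48 CPM in sgNT and 11.6 ± 0.859 CPM in crNT (SD, n = 2 each), a difference of -0.68 ± 0.23 (adjusted p = 0.063) that became -1.29 without sgNT replicate 1 (adjusted p = 0.00203) and -0.26 without sgNT replicate 2 (adjusted p = 0.708). NFKBIB was at 40.9 ± 3.25 CPM in sgNT and 33.9 ± 0.240 CPM in crNT, 0.27 ± 0.11 (adjusted p = 0.136). BIRC2 was at 52.3 ± 1.68 CPM in sgNT and 60.9 ± 0.679 CPM in crNT, -0.22 ± 0.10 (adjusted p = 0.173). For 4 of the 10 genes the libraries did not overlap, against 55.2% of all genes. The comparison within non-targeting guides shares the sgNT and crNT libraries with the guide tests, so the values of RELB in them are not independent.

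Over both guides, a comparison also added after the values were seen, RELB and NFKB2 were called and the other 8 were not. RELB was lower with dCasMINI-VPR (-0.68 ± 0.17, fold 0.62, adjusted p = 0.00703), with means of 5.83 CPM with dCasMINI-VPR and 9.37 CPM with dCas12a-VPR. NFKB2 was lower too (-0.26 ± 0.08, fold 0.84, adjusted p = 0.0359), with means of 37.7 CPM with dCasMINI-VPR and 44.8 CPM with dCas12a-VPR. These 2 of 10 compare with 10.0% of all genes called. For both genes the dCasMINI-VPR library values overlapped the dCas12a-VPR ones once the guides were put together. The call of RELB was lost without sgNT replicate 2 (-0.47, adjusted p = 0.0753), and that of NFKB2 without any one of 7 libraries, sgTet replicate 2 being the exception (adjusted p up to 0.208), and with DESeq2 (adjusted p = 0.0631).

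**Figure D3:**
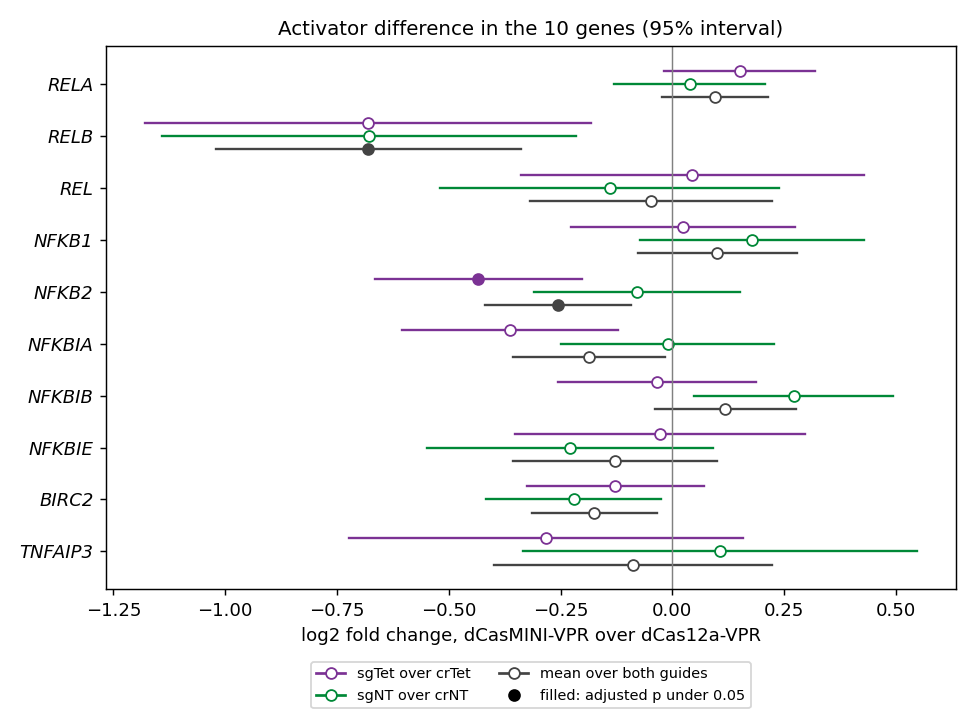
Log2 fold change of dCasMINI-VPR over dCas12a-VPR for each gene with its 95% interval, with Tet guides, with non-targeting guides and as the mean over both. Filled points mark an adjusted p under 0.05, which NFKB2 has with the Tet guides and over both, and RELB over both at -0.68.

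The profile of each called gene over the 8 libraries was set beside that of 12683 other genes with a symbol. RELB ran most closely with TRIM69, JOSD1 and PPP3CC (Pearson r of log2 CPM 0.985, 0.983 and 0.972). NFKB2 ran with NFATC4, ZNF385A and ADPRS (r = 0.995, 0.992 and 0.984), and BIRC2 with LOXL4, ARMCX3 and CSRNP1 (r = 0.992, 0.985 and 0.981). These are the highest of many correlations over 8 libraries and describe likeness alone.

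Other genes of the pathway were taken from 5 lists, chosen with earlier results of these data known. Of these, 106 of 107 genes were matched and 91 tested. With dCasMINI-VPR, 2 of the 91 fell with the Tet guide and none rose, where 0.325% and 0.470% of all genes did. They were TNFRSF10B, a death receptor gene, at 147 ± 14.1 CPM in sgTet and 198 ± 8.89 CPM in sgNT (-0.43, adjusted p = 0.00149), and OTUD7B, a deubiquitinase that restrains the non-canonical pathway, at 33.7 ± 2.04 CPM in sgTet and 45.6 ± 0.374 CPM in sgNT (-0.43, adjusted p = 0.0342; SD, n = 2 each). Without sgNT replicate 1 both calls were lost (adjusted p = 0.129 and 0.279), and that of OTUD7B also without sgNT replicate 2, sgTet replicate 1 or either crNT library (0.27, 0.235, 0.0643 and 0.0649). The OTUD7B call was lost too in a fit of the 4 libraries compared (edgeR adjusted p = 0.115) and with either strand column (0.229 and 0.0696). With dCas12a-VPR 2 of 91 rose and 3 fell, where 3.56% and 2.75% of all genes did. The risers were response genes, namely the growth arrest gene GADD45B, at 302 ± 54.7 CPM in crTet and 190 ± 1.81 CPM in crNT (0.67, adjusted p = 4.07e-04), and the small GTPase gene RHOB, at 775 ± 26.0 CPM in crTet and 558 ± 33.3 CPM in crNT (0.47, adjusted p = 4.55e-05). Both are also stress and growth factor response genes, and both kept their calls whichever library was left out. The genes that fell were TNFRSF10B (-0.50, adjusted p = 9.14e-05), the adaptor TRAF5 (-0.47, adjusted p = 0.048) and the ubiquitin ligase gene ITCH (-0.36, adjusted p = 0.0136), and the last 2 calls rest on single libraries. TRAF5 lost its call without any 1 of the crTet, crNT or sgNT libraries (adjusted p of 0.0607 to 0.32), and ITCH without either crNT library (0.141 and 0.132) or crTet replicate 2 (0.192). The TRAF5 call was also lost with DESeq2 (0.0637), with no filter (0.0551) and with either strand column (0.273 and 0.0882), and that of ITCH with the second strand column (0.0688). The test of the difference between guide effects called ITCH higher with dCasMINI-VPR (0.48, adjusted p = 0.0498) and RHOB and GADD45B lower (-0.52, adjusted p = 0.00371, and -0.74, adjusted p = 0.0109), where 0.506% and 0.843% of all genes were. The last pair lost that call without sgNT replicate 2 (0.0816 and 0.0948) or crNT replicate 1 (0.0961 and 0.06), and that of ITCH was lost without any library but sgTet replicate 2 (adjusted p up to 0.359). The ITCH difference was lost as well with RLE factors (0.0513), library size scaling (0.0663), DESeq2 (0.069) and either strand column (0.0925 and 0.103).

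By role, none of the 12 genes of the kinase list, such as CHUK and IKBKB, passed either guide test in edgeR or DESeq2. At an unadjusted p under 0.05 there were 0 with dCasMINI-VPR and 3 with dCas12a-VPR. The share of all genes at such a p is not given, and with dCas12a-VPR an edgeR p of 0.0616 ranked 3624 over all genes. Of the 8 other inhibitor-family genes, such as BCL3 and NFKBIZ, none passed either guide test in either tool (0 and 1 at an unadjusted p under 0.05). The 33 tested response genes had a median log2 fold change of -0.07 with dCasMINI-VPR and -0.04 with dCas12a-VPR.

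Between activators more pathway genes were called lower than higher with dCasMINI-VPR. Over both guides 17 of the 91 genes were lower with dCasMINI-VPR and 1 was higher, where 5.20% and 4.83% of all genes were. Of the 33 response genes 10 were lower and none higher, with a median of -0.40, beside 0.00 over all genes. Since the lists were chosen with earlier results of these data known, these counts beside all genes are a description and not a test. With one library left out in turn, the number of response genes lower with dCasMINI-VPR ran from 5 to 12 and the number higher stayed at 0. The cytokine gene CSF1 averaged 27.4 CPM with dCasMINI-VPR and 44.3 CPM with dCas12a-VPR (-0.71 ± 0.08, adjusted p = 1.43e-07). The syndecan gene SDC4 averaged 26.0 CPM with dCasMINI-VPR and 39.9 CPM with dCas12a-VPR (-0.61 ± 0.09, adjusted p = 4.93e-05), and the chemokine gene CCL5 3.68 CPM with dCasMINI-VPR and 7.49 CPM with dCas12a-VPR (-1.04 ± 0.18, adjusted p = 1.17e-04). CXCL10, another chemokine gene, averaged 1.79 CPM with dCasMINI-VPR and 3.64 CPM with dCas12a-VPR (-1.01 ± 0.23, adjusted p = 0.00355), a call lost with the first strand column (-0.90, adjusted p = 0.0622). CCL5 and CXCL10 are interferon-responsive as well as NF-kB-responsive.

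Over both guides 5.20% of all genes were called lower with dCasMINI-VPR and 4.83% higher. Of the 23 tested receptor and adaptor genes 4 were lower and none higher. Of the 20 tested ubiquitin and feedback regulators 2 were lower and 1 higher. The higher one was CUL1, a scaffold of the ubiquitin ligase that acts on IkB proteins, at a mean of 217 CPM with dCasMINI-VPR and 192 CPM with dCas12a-VPR (0.18 ± 0.05, adjusted p = 0.0261). Its call was lost without any 1 library but sgTet replicate 2 (adjusted p of 0.0623 to 0.137) and with either strand column (0.0707 and 0.0635). TNFRSF12A, the receptor for TWEAK and an input to the non-canonical pathway, had 7.90 and 9.05 CPM in sgTet, 9.32 and 9.98 CPM in sgNT, 13.3 and 16.9 CPM in crTet, and 17.6 and 16.5 CPM in crNT. All 4 dCasMINI-VPR libraries were below all 4 dCas12a-VPR libraries (-0.83 ± 0.12, adjusted p = 7.82e-06). NLRC5, known as the transactivator of MHC class I genes and reported to restrain NF-kB, had 8.25 and 8.91 CPM in sgTet, 9.32 and 6.35 CPM in sgNT, 18.5 and 15.8 CPM in crTet, and 23.4 and 19.1 CPM in crNT, again without overlap (-1.22 ± 0.12, adjusted p = 8.65e-09). TLR3, a sensor of double-stranded RNA, averaged 2.44 CPM with dCasMINI-VPR and 5.64 CPM with dCas12a-VPR (-1.23 ± 0.21, adjusted p = 1.06e-04). TLR5 averaged 1.255 CPM with dCasMINI-VPR and 2.403 CPM with dCas12a-VPR, with overlap (-0.98 ± 0.29, edgeR adjusted p = 0.0275). The TLR5 call was lost with either strand column (0.0569 and 0.248) and rested on single libraries. RBCK1, a subunit of the linear ubiquitin ligase, averaged 74.7 CPM with dCasMINI-VPR and 96.4 CPM with dCas12a-VPR (-0.37 ± 0.06, adjusted p = 1.46e-04). CSF1, SDC4, CCL5, TNFRSF12A, NLRC5, TLR3 and RBCK1 were called whichever library was left out. In bulk libraries, fewer cells that express a gene and less RNA per cell cannot be told apart.

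**Figure D4:**
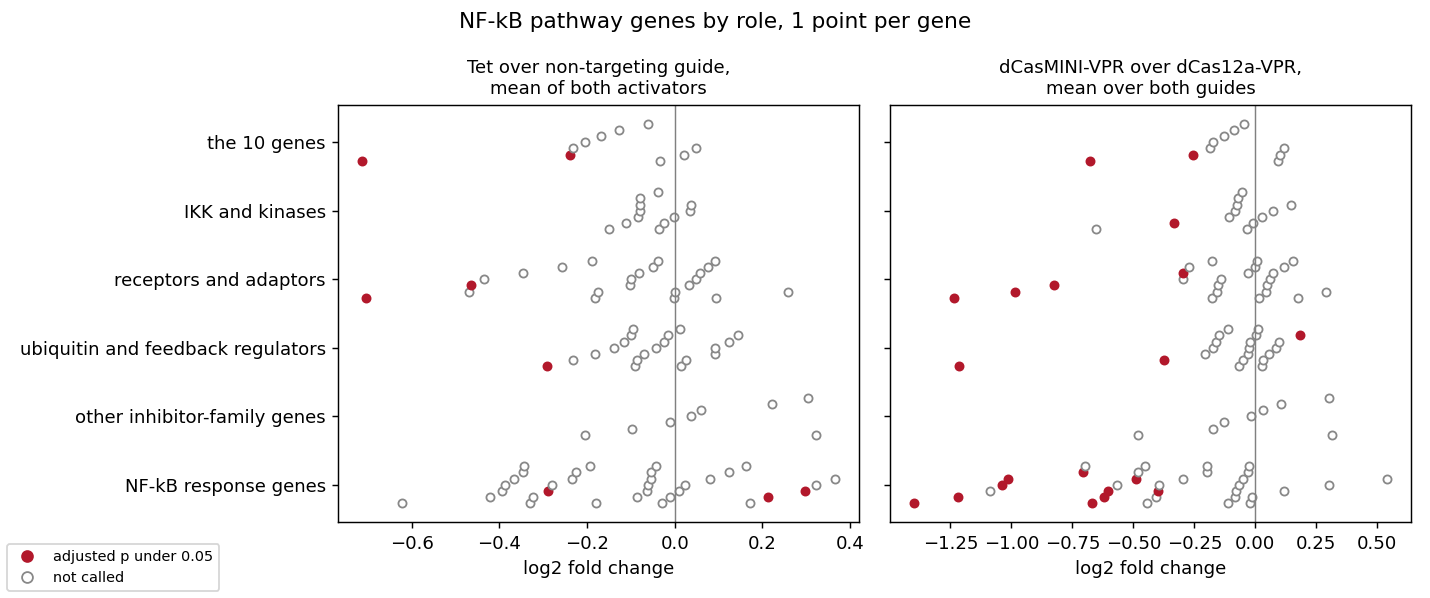
Log2 fold change of each tested pathway gene, 1 point per gene by role, for the mean guide effect (left) and for dCasMINI-VPR over dCas12a-VPR over both guides (right). Red points have an adjusted p under 0.05, and on the right 10 of the 33 response genes are red, all of them below 0. The lists were chosen with earlier results of these data known.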

How the data were processed

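Per the submitters' processing notes, STAR and hg38 were used, with no STAR version given, and the authors deposited raw counts of reads per gene for each of 8 libraries. Each file has 3 columns of counts for 60652 genes, and also 4 totals of reads assigned to no gene, which hold 25.3% to 29.9% of reads and were left out. The column that ignores strand was used. Symbols were found for 60481 rows, and coordinates and exon lengths came from GENCODE release 29, in which 58405 rows occur. The release behind the counts is not given.

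The robust two-sided quasi-likelihood test of edgeR 4.0.16 (R 4.3.3) was run in 1 model of 8 libraries with a mean per group, TMM factors and a low-count filter by group, leaving 16606 genes and all 10 members. The common biological coefficient of variation was 8.04%. The call threshold was 0.05 after Benjamini-Hochberg adjustment. SE is the size of the log2 fold change over the square root of F. The alternatives used DESeq2 1.42.0, other scalings, strand columns and filters, and left out each library. A library left alone in its group is assumed to vary like the others. Intervals and floors cover counting error only, since reads carry no molecular identifiers.

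The members and lists were chosen with earlier results of these data known. Named genes were the 10 members, EGFP, up to 4 called genes per list and contrast by adjusted p, of which those of the guide tests and the mean activator difference are given in part, and the 3 genes with the highest correlation to a called member among genes with a mean log2 CPM of at least 1 (prior count of 2). Protein sequences were not used here.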

Additional observations from a re-analysis of the deposited data

How the results depend on the processing

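Of 1090 values of the members under the alternatives, 1033 stayed on their side of the threshold, 27 lost a call and 30 gained one, and no called value changed sign. Of 984 that passed in neither fit, 58 had the other sign. Counts of all called genes moved by over 1.5 times as follows. With no filter on low counts the guide effect with dCasMINI-VPR gave 276 (132 in the main fit) and the difference between guide effects 450 (224). In fits of the 4 libraries compared, the guide effects gave 84 with dCasMINI-VPR and 1785 with dCas12a-VPR (1049), and the activator differences 2968 with non-targeting guides (1276) and 317 with Tet guides (711). The first strand column gave 661 for the dCas12a-VPR guide effect, 106 for the difference and 444 for Tet guides. Leaving out 1 library each gave 50 to 1475 and 135 to 1965 for the guide effects, 28 to 1835 for their difference, 333 to 2143 and 331 to 2150 for the activator with non-targeting and Tet guides, 207 to 1499 for the mean guide effect and 839 to 2403 for the activator over both guides.

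Members called, in the same order of 7 comparisons, ran from 0 to 1, 0 to 2, 0 to 1, 0 to 1, 0 to 1, 0 to 3 and 0 to 2 when libraries were left out. With library size scaling the dCas12a-VPR guide effect called 2 (RELB and BIRC2), and with no filter it called 1 (RELB), the dCasMINI-VPR effect 1 (NFKBIA), non-targeting guides 1 (RELB) and Tet guides 2 (NFKB2 and NFKBIA). Fits of 4 libraries called 2 (RELB and BIRC2) for dCas12a-VPR guides, 3 (RELB, NFKBIB and BIRC2) with non-targeting guides and 0 with Tet guides. Over both guides DESeq2 and the first strand column called 1 (RELB). The second strand column called 0 for the mean guide effect and over both guides, and both strand columns 0 with Tet guides. Beyond the fits with fewer libraries or genes and the strand columns with fewer reads, the cause was not tested.

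The labels do not say that replicate numbers pair libraries, and same-numbered deviations correlated by 0.028 and 0.0488 within the activators. With a replicate block the difference between guide effects gave 347 genes, and members called were 1 (RELB) for dCas12a-VPR guides, 1 (RELB) with non-targeting guides and 2 (NFKB2 and NFKBIA) with Tet guides. RELB, TNFAIP3 and REL had the widest intervals of the guide effects, and the shares of counting error and of other spread between libraries in them were not separated.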

Other observations

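Chosen after their values were seen, the inflammatory cytokine genes IL6 and TNF, textbook NF-kB targets of immune cells, had at most 11 reads in any library and were too low to be tested. IL6 had 0 CPM in all dCasMINI-VPR libraries, 0.244 and 0 CPM in crTet, and 0.154 and 0.148 CPM in crNT. TNF had 0 and 0.0968 CPM in sgTet, 0.102 and 0.0567 CPM in sgNT, 0.244 and 0.103 CPM in crTet, and 0.564 and 0.295 CPM in crNT. The chemokine gene CXCL8 had 1.25 and 0.435 CPM in sgTet, 0.461 and 1.14 CPM in sgNT, 0.683 and 0.929 CPM in crTet, and 1.90 and 1.18 CPM in crNT. Its sgTet and sgNT values overlap, both crTet values are below both crNT values, and neither guide test passed (edgeR adjusted p = 0.97 and 0.42).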
